A study of Mus musculus with 6 samples.

Results

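The proteasome genes were described here as a group of transcripts in 6 RNA sequencing libraries labelled heart. Members were all rows of the deposited expression table whose mouse symbol begins with Psma, Psmb, Psmc, Psmd, Psme, Psmf or Psmg followed by a number. The immunoproteasome genes Psmb8, Psmb9 and Psmb10 and 1 pseudogene symbol were left out of the 50 rows that match, which left 46 of the 23494 rows. The rule itself uses gene symbols only, but the group was chosen with earlier results of these data known. The 3 rMANF libraries came from female wild type C57BL/6 mice that received recombinant MANF, a protein of the endoplasmic reticulum that is also secreted, by intraperitoneal injection at 2 µg/kg every day. The 3 vehicle libraries came from mice of the same sex, genotype and strain that received PBS. All mice of both groups carried B16F10 melanoma cells implanted under the skin of the right flank, and injections began when tumours averaged about 60 mm3, with 8 mice randomised to each group. The column names of the vehicle libraries begin with IgG, although the labels give their treatment as PBS. The labels call the 3 samples of a group biological replicates and do not say how they were taken from the 8 mice, so the p-values measure the spread between these samples.

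The proteasome is the protease that breaks down proteins tagged with ubiquitin. Its core particle is a barrel of stacked rings, the outer ones built of alpha subunits (Psma genes) that control entry and the inner ones of beta subunits (Psmb genes), of which Psmb5, Psmb6 and Psmb7 carry the constitutive proteolytic sites. The regulatory particle caps the barrel: its base holds the ATPases (Psmc genes) that unfold substrates together with scaffold and ubiquitin-binding subunits, and its lid holds the deubiquitinase Psmd14. Subunits are needed in fixed proportions within a particle, and in mammalian cells the transcription factor NFE2L1 raises their genes together when proteasome activity is impaired. The heart depends on the proteasome for the turnover of contractile proteins, and immune cells carry an interferon-induced form of it.

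By role the 46 rows held 8 alpha and 7 beta genes of the core, 9 genes of the base and 8 of the lid, 3 base assembly chaperones, 4 core assembly chaperones, and 6 genes of activators and an inhibitor. Psmc3ip, which encodes a recombination factor, matched by symbol only and is no subunit. Levels are in TPM, a length-corrected unit in which every library has the same total. Of these rows 45 passed the filter on low values, which asked for an average over all libraries of 1 TPM or more. The exception was Psma8, the alpha subunit of germ cells, which measured 0.223, 0.167 and 0.0565 TPM in the rMANF libraries, against 0.224, 0.266 and 0.272 TPM in the vehicle libraries.

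The promoters of the members were searched for letters bound by transcription factors, a measure independent of any expression value. RefSeq promoters (build GRCm38.p6, 250 bases before to 50 after the annotated start) were found for 38 of the 46 members, among them 11 of the 15 core and 14 of the 17 regulatory genes, and the first promoter listed for a gene was used. The letters CCGGAAG, the core of the element bound by ETS factors, were searched on both strands. They stood in 9 of 14 regulatory particle promoters (64.3%) and in 0 of 11 core particle promoters, against 8.86% of all promoters in the table and 19.5% of the first promoters of genes that passed the filter. With any listed promoter counted they stood in 9 of 14 regulatory genes (64.3%) and 1 of 11 core genes (9.09%), Psma6, whose second promoter holds them, against 21.2% of the genes that passed the filter. The difference between the particles was not tested. The windows of 41 bases around the match in those 9 promoters are given in the direction of the gene, with the ETS letters or their reverse complement CTTCCGG in capitals.
Psmc1: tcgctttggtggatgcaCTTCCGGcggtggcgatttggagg
Psmc2: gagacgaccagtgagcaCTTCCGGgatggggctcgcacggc
Psmc6: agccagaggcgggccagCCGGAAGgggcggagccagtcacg
Psmd2: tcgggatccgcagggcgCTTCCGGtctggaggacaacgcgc
Psmd4: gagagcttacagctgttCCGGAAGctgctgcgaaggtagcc
Psmd6: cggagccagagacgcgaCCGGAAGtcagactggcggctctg
Psmd11: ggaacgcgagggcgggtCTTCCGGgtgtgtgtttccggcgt
Psmd12: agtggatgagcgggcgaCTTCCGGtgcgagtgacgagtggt
Psmd13: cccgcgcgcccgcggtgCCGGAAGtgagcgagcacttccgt

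In GRCm38.p6 these windows lie at chr12:100110157-100110197 for Psmc1, chr5:21785174-21785214 for Psmc2, chr14:45329707-45329747 for Psmc6, chr16:20651609-20651649 for Psmd2, chr11:80428587-80428627 for Psmd11, chr11:107479494-107479534 for Psmd12 and chr7:140882371-140882411 for Psmd13, all on the plus strand. Those of Psmd4 (chr3:95042716-95042756) and Psmd6 (chr14:14120967-14121007) lie on the minus strand. Counted from the annotated start, the first base of the match lay between −125 for Psmd4 and −6 for Psmd13. The ATPase genes Psmc1, Psmc2 and Psmc6, the base scaffold gene Psmd2, the ubiquitin receptor gene Psmd4 and the lid genes Psmd6, Psmd11, Psmd12 and Psmd13 thus shared these letters.

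The core letters of the antioxidant response element, TGACNNNGC, to which NFE2L1 and NFE2L2 bind with small MAF partners, were searched in the same way. They stood in 2 of 11 core promoters (18.2%) and 2 of 14 regulatory promoters (14.3%), against 12.4% of all promoters in the table and 14.9% of those of genes that passed the filter. The core genes with a match were Psmb5 and Psmb6, which encode the subunits with chymotrypsin-like and caspase-like activity. Their whole promoters are given, with the matching letters in capitals, because Nfe2l1 was the pathway gene of smallest p between the groups. Whether NFE2L1 acts on these promoters was not tested.
Psmb5: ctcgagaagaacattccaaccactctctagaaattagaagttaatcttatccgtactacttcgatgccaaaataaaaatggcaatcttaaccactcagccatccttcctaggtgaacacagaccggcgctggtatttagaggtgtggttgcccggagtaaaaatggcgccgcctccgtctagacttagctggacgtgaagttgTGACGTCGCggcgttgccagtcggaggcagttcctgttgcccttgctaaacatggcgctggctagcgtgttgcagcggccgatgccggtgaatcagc
Psmb6: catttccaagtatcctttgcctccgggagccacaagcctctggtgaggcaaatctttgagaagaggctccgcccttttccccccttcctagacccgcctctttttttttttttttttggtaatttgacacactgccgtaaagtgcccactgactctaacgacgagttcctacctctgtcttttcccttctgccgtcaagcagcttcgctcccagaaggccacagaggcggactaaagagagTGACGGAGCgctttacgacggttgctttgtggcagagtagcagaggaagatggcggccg

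The Psmb5 promoter lies at chr14:54617946-54618245 on the minus strand and the Psmb6 promoter at chr11:70525107-70525406 on the plus strand of GRCm38.p6. The regulatory genes with a response element match were Psmc6 and Psmd12. The CCAAT letters bound by NF-Y stood in 6 of 11 core promoters (54.5%) and 4 of 14 regulatory promoters (28.6%). They stood in 37.4% of all promoters in the table and 39.1% of the first promoters of genes that passed the filter. The E-box CACGTG stood in 1 of 11 core promoters and 0 of 14 regulatory promoters, against 7.15% and 10.3% in the same order. These matches describe letters in a window and show no binding, and a promoter without a match may hold a site outside it.

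Proteasome transcripts were abundant in all 6 libraries. The 14 tested core genes ranged 7.50-fold, from Psma2 at a mean of 91.3 TPM to Psma7 at 685 TPM, and their median of 343 TPM stood at percentile 97.2 of all tested genes. Apart from Psma2, the lowest core gene was Psmb2 at 234 TPM. The 17 regulatory genes ranged 3.84-fold, from the lid gene Psmd13 at 74.6 TPM to the ubiquitin receptor gene Psmd4 at 286 TPM, with a median of 169 TPM. Assembly factors were lower, with medians of 73.6 TPM for the 4 core chaperones and 27.7 TPM for the 3 base chaperones. The order of levels within the core was close in both groups, where Psma2 was lowest, Psmb2 next and Psmb3 and Psma7 highest.

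Psma7 measured 735, 691 and 634 TPM in the rMANF libraries, against 681, 713 and 654 TPM in the vehicle libraries. Psmd4 measured 289.8, 289 and 287 TPM in the rMANF libraries, against 303, 279 and 270.2 TPM in the vehicle libraries. Psmd13 measured 82.4, 79.1 and 66.5 TPM in the rMANF libraries, against 67.6, 76.5 and 75.3 TPM in the vehicle libraries. For each of these 3 genes the groups overlapped, and the log2 differences were 0.01, 0.02 and 0.05 in that order, with signs that turned under other settings of the analysis.

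**Figure D1:**
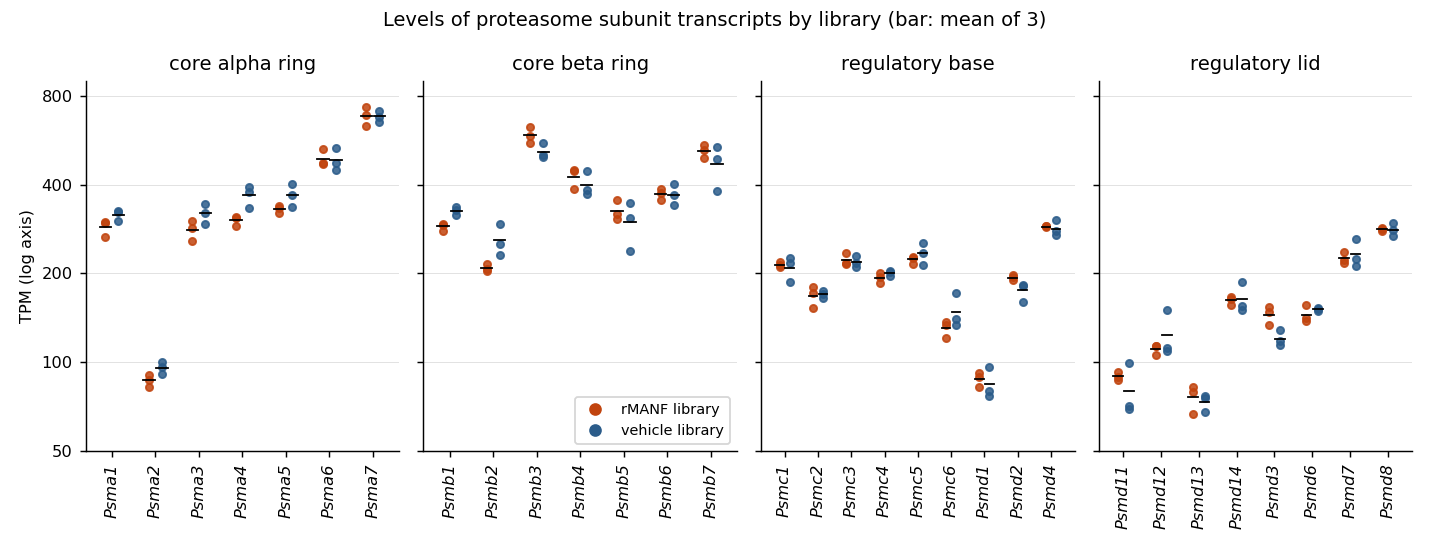
Level of each tested core and regulatory particle gene in TPM (log axis) in the 3 rMANF and the 3 vehicle libraries, 1 point per library, with a bar at the mean of each group. Psma2 lies far below the other core genes, Psma7 lies highest, and the points of the groups lie close together for most genes.

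Proteasome transcripts also varied less between libraries than most genes. The coefficient of variation over the 6 libraries had a median of 8.67% for the core, 7.11% for the regulatory particle and 9.25% for the other classes, against 14.1% over all tested genes. The ATPase gene Psmc4 had the lowest value among subunits at 3.24% and Psmb2 the highest at 14.8%. The 3 immunoproteasome genes had a median of 21.4%. The genes were not matched on level for these percentages, which are a description only.

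No proteasome gene passed the test for a difference between the rMANF and the vehicle libraries, and none of all 12865 tested genes did (0.0% called; limma on log2(TPM + 1) with Benjamini-Hochberg adjustment, threshold 0.05). At an unadjusted p under 0.05, 2642 genes (20.5%) were counted, among them 5 of the 45 tested members. Log2 differences are rMANF minus vehicle throughout, and those of core and regulatory genes had standard errors between 0.07 and 0.14.

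The total levels of the core and of the regulatory particle overlapped between the groups. Summed over its genes, the core reached 5367, 5324 and 4912 TPM in the rMANF libraries, against 5148, 5543 and 5153 TPM in the vehicle libraries. The regulatory particle reached 2957 ± 86.8 TPM in the rMANF libraries and 2951 ± 110 TPM in the vehicle libraries (SD, n = 3 each). The mean core gene was 2.17, 2.15 and 2.09 times the mean regulatory gene in the rMANF libraries, against 2.03, 2.31 and 2.19 times in the vehicle libraries. These ratios overlapped as well.

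Within the core, the medians of the alpha and the beta ring had opposite signs, a difference that was not tested. Of the 7 tested alpha genes 5 lay lower in the rMANF libraries and 2 lay at or slightly above the vehicle level, with a median log2 difference of −0.14. Of the 7 beta genes 2 lay lower and 5 higher, with a median of 0.09, beside a median of 0.04 over all tested genes. With a library left out the beta median ranged from 0.0065 without vehicle replicate 1 to 0.17 without vehicle replicate 2. The medians over all tested genes in those fits were 0.08 and −0.0006, so without vehicle replicate 1 the beta median lay below that of all tested genes. The alpha median ranged from −0.17 without vehicle replicate 3 to −0.11 without rMANF replicate 3. In the core as a whole 5 of 14 genes were lower in every rMANF library than in any vehicle library (Psma1, Psma2, Psma4, Psmb1 and Psmb2), against 9.02% of all tested genes, and 1 was higher in every one (Psmb3), against 18.9%. In either direction the groups were apart for 28.0% of all tested genes. At an unadjusted p under 0.05, 3 core genes were counted lower, against 6.63% of all tested genes, and 0 higher, against 13.9%. The mean alpha gene was 0.889, 0.921 and 0.898 times the mean beta gene in the rMANF libraries, against 1.12, 0.938 and 0.955 times in the vehicle libraries. These ratios did not overlap, though vehicle replicate 2 lay close to the highest rMANF value, and no test was run on them. With the GC trend removed, a setting described with the alpha genes, the 5 genes that were lower in every rMANF library became 3. At that setting 8.68% of all tested genes were lower in every rMANF library. The beta median was then 0.03, beside a median of 0.06 over all tested genes.

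Of the alpha genes, Psma4 (chromosome 9, 54950790 to 54958030 in GRCm38) had the smallest p. It measured 309, 309.8 and 289 TPM in the rMANF libraries, against 393, 379 and 333 TPM in the vehicle libraries. Every rMANF library lay below every vehicle library. The log2 difference was −0.28 ± 0.09 (SE) with a 95% interval of −0.48 to −0.08, which did not pass limma's test (adjusted p = 0.146). Psma4 shares exon bases with a gene model on the opposite strand, and the library kit does not mark strand, so reads of the pair cannot be told apart.

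Psma1 measured 300.0, 297 and 266 TPM in the rMANF libraries, against 326, 323 and 301 TPM in the vehicle libraries. Psma2 measured 90.7, 87.2 and 82.5 TPM in the rMANF libraries, against 100.01, 96.2 and 91.3 TPM in the vehicle libraries. In both genes the highest rMANF value came within 1 TPM of vehicle replicate 3 without overlap, and neither passed the test (log2 differences −0.14 ± 0.08 and −0.14 ± 0.08, SE; limma, adjusted p = 0.383 and 0.357). Psma3 measured 286, 300.4 and 257 TPM in the rMANF libraries, against 345, 320.2 and 294 TPM in the vehicle libraries. Psma5 measured 334, 338 and 321 TPM in the rMANF libraries, against 336, 403 and 369 TPM in the vehicle libraries. Psma3 overlapped because rMANF replicate 2 lay above vehicle replicate 3, and Psma5 because vehicle replicate 1 lay inside the rMANF range.

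The extremes of the alpha ring came from the same libraries in most genes. In 6 of its 7 tested genes the lowest value came from rMANF replicate 3, and in 5 of 7 the highest came from vehicle replicate 1. Without rMANF replicate 3 the median alpha difference was −0.11, and without vehicle replicate 1 it was −0.12. With each library's trend on transcript GC content removed, it was −0.07. The groups were then apart for 1 alpha gene, lower in rMANF, against 8.68% of all tested genes. Over all tested genes, GC content and log2 difference correlated at r = 0.29 across genes, and over the 14 core genes at r = 0.30, a description of genes that share the same 6 libraries.

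Of the structural beta genes, Psmb2 (chromosome 4, 126677630 to 126709714 in GRCm38) lay lowest relative to vehicle. It measured 215, 208 and 205 TPM in the rMANF libraries, against 231, 296 and 252 TPM in the vehicle libraries. The rMANF values were close together and below all vehicle values. The log2 difference was −0.30 ± 0.10 (SE) with a 95% interval of −0.53 to −0.07 (limma, adjusted p = 0.162), and without vehicle replicate 2 it was −0.20. Psmb1 (chromosome 17, 15475021 to 15499751 in GRCm38) measured 296, 292 and 279 TPM in the rMANF libraries, against 336, 328 and 316 TPM in the vehicle libraries. It too showed no overlap, with a log2 difference of −0.18 ± 0.07 (SE; limma, adjusted p = 0.217).

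Psmb3 (chromosome 11, 97703399 to 97713500 in GRCm38) was the core gene on the other side. It measured 627, 586 and 555 TPM in the rMANF libraries, against 505, 553 and 497 TPM in the vehicle libraries. Every rMANF library lay above every vehicle library, with rMANF replicate 3 just above vehicle replicate 2. The log2 difference was 0.19 ± 0.08 (SE; limma, adjusted p = 0.253), and the separation was lost under median-of-ratios scaling or when the libraries were rescaled without mitochondrial and haemoglobin genes. Psmb2 was 0.343, 0.355 and 0.368 times Psmb3 in the rMANF libraries, against 0.458, 0.534 and 0.507 times in the vehicle libraries. This pair was chosen after its values were seen, so its lack of overlap is not tested.

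The 3 proteolytic subunits did not separate the groups. Psmb5 measured 354, 307 and 318 TPM in the rMANF libraries, against 239, 348 and 309 TPM in the vehicle libraries. Psmb6 measured 376, 388 and 354 TPM in the rMANF libraries, against 368, 403 and 340.4 TPM in the vehicle libraries. Psmb7, with trypsin-like activity, measured 525, 547 and 492 TPM in the rMANF libraries, against 381, 487 and 539 TPM in the vehicle libraries. In Psmb5 and Psmb7 the spread came mainly from vehicle replicate 1, which had the lowest value of both. The 95% intervals of the log2 difference were −0.18 to 0.46 for Psmb5, −0.19 to 0.21 for Psmb6 and −0.13 to 0.46 for Psmb7, around estimates of 0.14, 0.01 and 0.16. Without vehicle replicate 1 the estimates were −0.01 for Psmb5 and 0.02 for Psmb7.

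**Figure D2:**
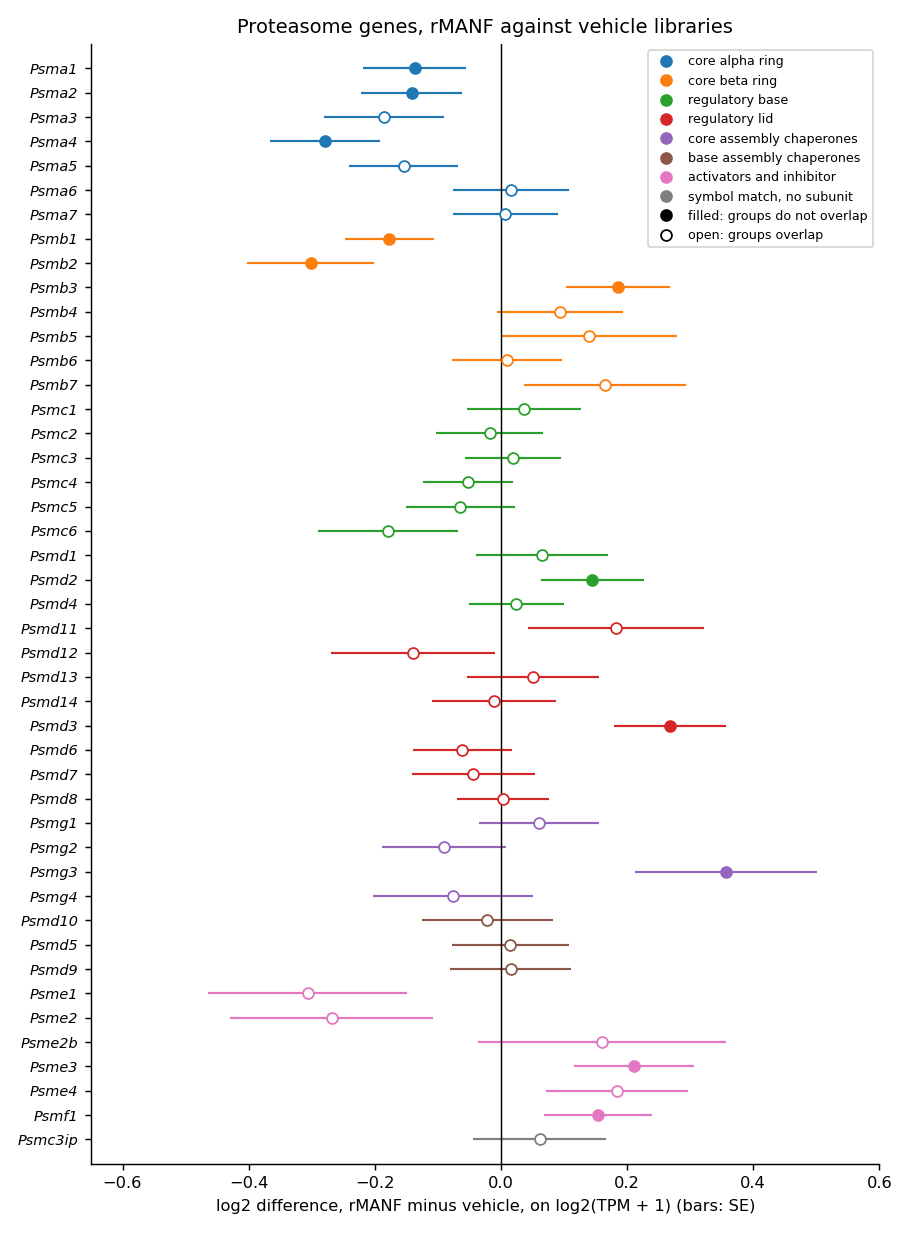
Log2 difference of each tested member, rMANF minus vehicle on log2(TPM + 1), with bars of 1 SE; filled points mark members whose groups do not overlap. Of the 5 members filled on the left, all belong to the core, and the filled regulatory genes are Psmd2 and Psmd3 on the right.

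In the regulatory particle the median log2 difference of the 17 genes was 0.00, with 8 lower and 9 higher. No gene of the 17 was lower in every rMANF library than in any vehicle library (0, against 9.02% of all tested genes), and 2 were higher in every one (Psmd2 and Psmd3), against 18.9%. At an unadjusted p under 0.05 limma counted 0 lower, against 6.63% of all tested genes, and 1 higher, against 13.9%. Without vehicle replicate 1 the 2 became 6, when 32.1% of all tested genes were higher in every rMANF library, and without vehicle replicate 3 the 0 became 3, when 13.7% were lower in every one. The base and the lid had medians of 0.02 and −0.0035 and summed to 1721 ± 43.1 and 1236 ± 44.5 TPM in the rMANF libraries, against 1725 ± 43.8 and 1226 ± 74.2 TPM in the vehicle libraries (SD, n = 3 each).

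The lid gene Psmd3 (chromosome 11, 98682554 to 98695979 in GRCm38) had the smallest p of the regulatory particle. It measured 154, 148 and 133 TPM in the rMANF libraries, against 129, 114 and 118 TPM in the vehicle libraries. The groups did not overlap, rMANF replicate 3 lying nearest to the vehicle libraries. The log2 difference was 0.27 ± 0.09 (SE) with a 95% interval of 0.06 to 0.47 (limma, adjusted p = 0.159). Psmd2, the scaffold that also binds shuttle receptors, measured 195, 197 and 189 TPM in the rMANF libraries, against 161, 183 and 182 TPM in the vehicle libraries. It showed no overlap either, with a log2 difference of 0.14 ± 0.08 (SE; limma, adjusted p = 0.356), and the difference was 0.08 without vehicle replicate 1.

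The lid gene Psmd11 stood next in order of p among those higher in rMANF. It measured 92.4, 86.8 and 89.3 TPM in the rMANF libraries, against 99.4, 69.1 and 71.0 TPM in the vehicle libraries. Vehicle replicate 1 lay above all rMANF values and the other two vehicle libraries below them, so that the log2 difference of 0.18 ± 0.14 (SE; limma, adjusted p = 0.501) was 0.35 without that library. Psmd14, the deubiquitinase that removes ubiquitin chains from substrates, measured 163, 166 and 157 TPM in the rMANF libraries, against 187, 151 and 155 TPM in the vehicle libraries. Its log2 difference was −0.01, with a 95% interval of −0.24 to 0.22.

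On the lower side, the ATPase gene Psmc6 measured 133, 137 and 121 TPM in the rMANF libraries, against 172, 140.1 and 133 TPM in the vehicle libraries. The lid gene Psmd12 measured 114, 114 and 106 TPM in the rMANF libraries, against 151, 111 and 109 TPM in the vehicle libraries. The lid gene Psmd6 measured 141, 156 and 138 TPM in the rMANF libraries, against 149, 152 and 153 TPM in the vehicle libraries. All 3 overlapped between groups, with log2 differences of −0.18, −0.14 and −0.06 (limma, adjusted p = 0.407, 0.591 and 0.706). For Psmc6 and Psmd12 the single high value was vehicle replicate 1, and without it the differences were −0.07 and 0.01. That library held the highest value for 8 of the 17 regulatory genes.

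Members with the ETS letters in their first promoter had a median log2 difference of 0.06 (14 genes, −0.18 to 0.36) and members without had a median of −0.0035 (24 genes, −0.31 to 0.19). The 11 core genes with a promoter were all among those without, so these medians also differ in particle. The difference was not tested. Members with the antioxidant response element letters had a median of 0.01 (6 genes), and so did those without (32 genes). Of the 9 genes with an ETS window given here and the 2 with a whole promoter, Psmd2 was the only one whose groups did not overlap. Over all tested genes that share was 28.0% in either direction.

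**Figure D3:**
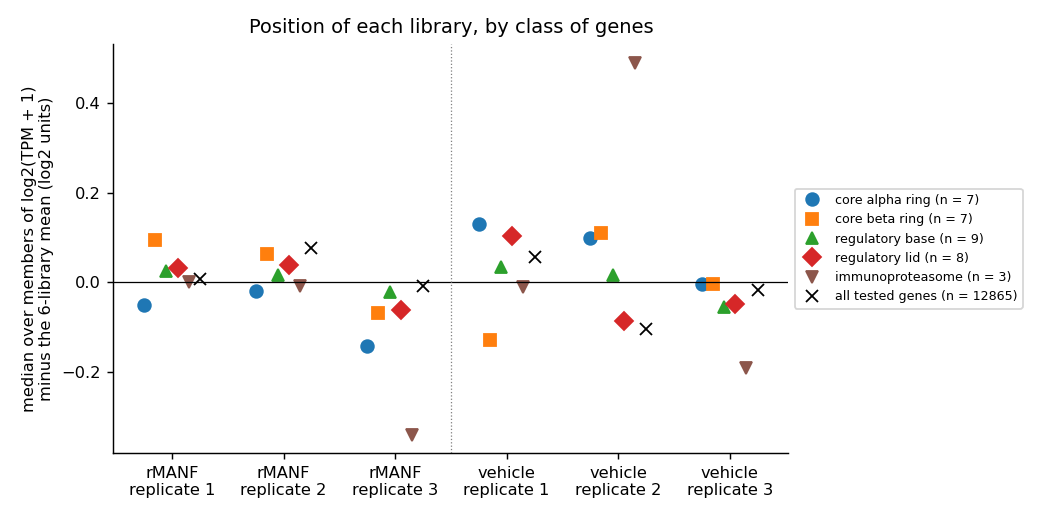
Median over the genes of a class of each library's deviation from the mean of the 6 libraries on log2(TPM + 1), for the 3 rMANF libraries on the left and the 3 vehicle libraries on the right. The alpha ring lies at −0.14 in rMANF replicate 3 and at 0.13 in vehicle replicate 1, where the beta ring lies at −0.13, and the immunoproteasome lies highest, at 0.49, in vehicle replicate 2.

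Of the 6 genes of the alternative caps, activators and an inhibitor of the core, Psme1 and Psme2 lay lower and Psme2b, Psme3, Psme4 and Psmf1 higher, with a median log2 difference of 0.16 and none past the test. Psme1, which with Psme2 encodes the interferon-induced PA28 activator, measured 251, 235 and 192 TPM in the rMANF libraries, against 312, 312 and 221 TPM in the vehicle libraries. Psme2 measured 333, 312 and 275 TPM in the rMANF libraries, against 363, 466 and 295 TPM in the vehicle libraries. In both genes vehicle replicate 3 lay inside the rMANF range, and the log2 differences were −0.31 ± 0.16 and −0.27 ± 0.16 (SE; limma, adjusted p = 0.317 and 0.388). Without vehicle replicate 2 they were −0.22 and −0.10. Psme2b is a near-identical copy of Psme2, so the split of reads between them is uncertain. Its log2 difference was 0.16 and that of the activator gene Psme4 0.18, both with overlapping groups.

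Psme3, which forms the nuclear activator PA28 gamma, measured 112, 114 and 108 TPM in the rMANF libraries, against 107, 86.2 and 95.7 TPM in the vehicle libraries. Psmf1, which encodes the inhibitor PI31, measured 29.8, 29.7 and 32.6 TPM in the rMANF libraries, against 28.5, 26.4 and 27.4 TPM in the vehicle libraries. In both genes every rMANF library lay above every vehicle library, by a small margin. Their log2 differences were 0.21 ± 0.09 and 0.15 ± 0.09 (SE; limma, adjusted p = 0.258 and 0.352), and that of Psme3 was 0.14 without vehicle replicate 2.

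Of the assembly chaperones, Psmg3 (chromosome 5, 139823592 to 139826885 in GRCm38), which helps to build the alpha ring, had the largest log2 difference of all members. It measured 86.6, 84.98 and 80.9 TPM in the rMANF libraries, against 51.2, 73.7 and 74.4 TPM in the vehicle libraries. The groups did not overlap, and vehicle replicate 1 lay far below the other two vehicle libraries. The log2 difference was 0.36 ± 0.14 (SE; limma, adjusted p = 0.22), and it was 0.18 without vehicle replicate 1. Psmg3 overlaps another gene model on the same strand. Psmg2 measured 61.8, 75.3 and 71.9 TPM in the rMANF libraries, against 69.7, 75.6 and 76.8 TPM in the vehicle libraries. Its groups overlapped, with a log2 difference of −0.09, and the 3 base chaperones Psmd5, Psmd9 and Psmd10 had log2 differences between −0.02 and 0.02. Psmc3ip, the recombination factor gene, measured 25.4, 28.3 and 26.3 TPM in the rMANF libraries, against 28.9, 23.3 and 24.7 TPM in the vehicle libraries, and its groups overlapped as well.

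Among the 14 members outside the core and regulatory particles, 3 were higher in every rMANF library than in any vehicle library (Psmg3, Psme3 and Psmf1), against 18.9% of all tested genes. In this class 0 were lower in every one, against 9.02%. The median log2 difference of these 14 members was 0.04, the same as over all tested genes. Of all 45 tested members, 13 share exon bases with another gene model, 4 of them on the same strand and 10 on the opposite strand, 1 gene being in both counts. They are Psma4, Psma5, Psmb5, Psmb7, Psmc3, Psmc3ip, Psmd1, Psmd3, Psmd9, Psmd13, Psme1, Psme2b and Psmg3, and for these the counting could have split or joined reads.

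The immunoproteasome genes, left out of the members, replace the 3 proteolytic subunits in immune and interferon-treated cells. Psmb8, which replaces Psmb5, measured 149, 153 and 129.9 TPM in the rMANF libraries, against 148, 189 and 132 TPM in the vehicle libraries. Psmb9, which replaces Psmb6, measured 125, 125 and 99.2 TPM in the rMANF libraries, against 137, 179 and 111 TPM in the vehicle libraries. Psmb10, which replaces Psmb7, measured 85.9, 84.2 and 66.7 TPM in the rMANF libraries, against 73.5, 146 and 71.5 TPM in the vehicle libraries. All 3 were highest in vehicle replicate 2 and lowest in rMANF replicate 3, with overlapping groups and log2 differences of −0.10, −0.27 and −0.22 (limma, adjusted p = 0.713, 0.422 and 0.679). Without vehicle replicate 2 these were 0.04, −0.10 and 0.11. The 11 T and NK cell markers all had rows, none at 0 in all libraries. Together they reached 22.6 to 42.5 TPM in the rMANF libraries and 47.5 to 121 TPM in the vehicle libraries. Their sum was highest in vehicle replicate 2. The macrophage, skeletal muscle and cardiomyocyte sums given below were also highest in that library. Those of endothelial, erythroid and melanocytic markers were not. The part of these markers in the immunoproteasome values was not tested.

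Each immunoproteasome gene lay below the constitutive gene it replaces in every library. Psmb9 was 0.332, 0.323 and 0.280 times Psmb6 in the rMANF libraries, against 0.373, 0.444 and 0.327 times in the vehicle libraries. Psmb8 was 0.421, 0.5003 and 0.409 times Psmb5 in the rMANF libraries, against 0.619, 0.543 and 0.428 times in the vehicle libraries. Psmb10 was 0.164, 0.154 and 0.136 times Psmb7 in the rMANF libraries, against 0.193, 0.300 and 0.133 times in the vehicle libraries. All 3 ratios overlapped between the groups, vehicle replicate 3 lying inside or below the rMANF range in each.

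**Figure D4:**
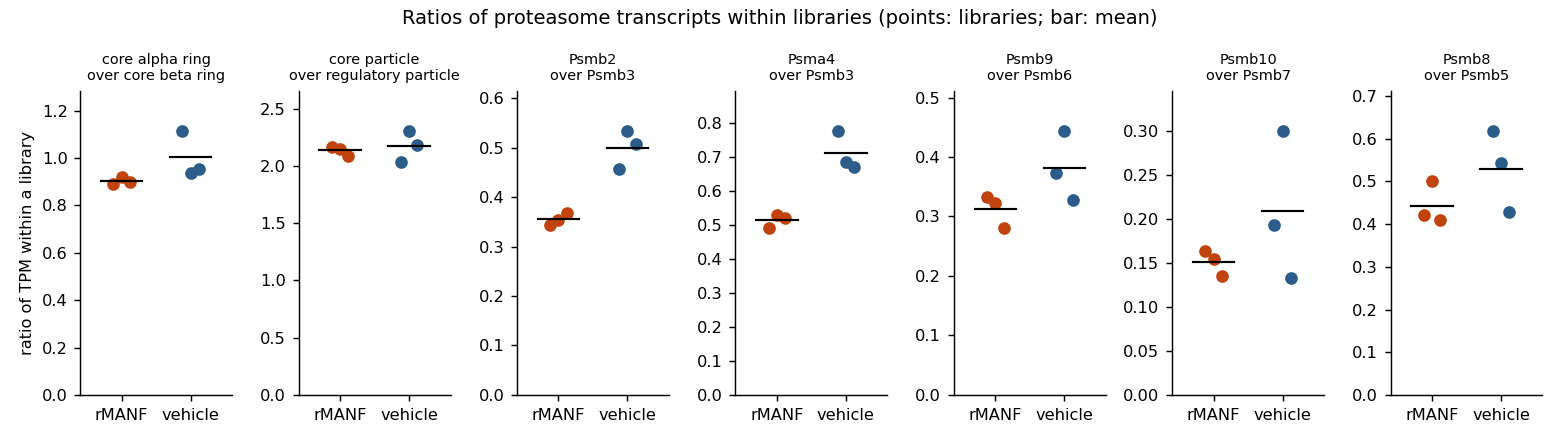
Ratios of TPM within a library, 1 point per library with a bar at the mean of 3, rMANF left of vehicle, for the core over the regulatory particle and the alpha over the beta ring (mean gene of each), Psmb2 and Psma4 over Psmb3, and each immunoproteasome gene over the constitutive gene it replaces. The points of the groups are apart for the alpha over beta ratio (0.889 to 0.921 in rMANF and 0.938 to 1.12 in vehicle libraries) and for both ratios to Psmb3, which were chosen after their values were seen, and overlap for the others.

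Genes of proteins that join the proteasome without a Psm symbol lay mostly lower in the rMANF libraries. Of 12 listed genes 9 had rows and were tested, with a median log2 difference of −0.10. Of these 8 were lower, against 42.7% of all tested genes, and 1 higher, against 57.3%. Without overlap 2 lay lower, against 9.02%, and 1 higher, against 18.9%. The one that lay higher was Adrm1, a ubiquitin receptor of the base, which measured 139, 126 and 123 TPM in the rMANF libraries, against 105, 105 and 107 TPM in the vehicle libraries. Uchl5, the deubiquitinase that docks on Adrm1, measured 50.9, 50.1 and 42.7 TPM in the rMANF libraries, against 75.9, 61.1 and 54.8 TPM in the vehicle libraries. The pair thus lay on opposite sides without overlap in either gene, with log2 differences of 0.28 ± 0.08 and −0.40 ± 0.13 (SE; limma, adjusted p = 0.123 and 0.162). The adjusted p of Adrm1 was 0.0455 with library weights, within a range up to 0.392 over the alternatives.

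Pomp, the chaperone that completes the core particle, measured 159, 160.2 and 142 TPM in the rMANF libraries, against 163, 216 and 176 TPM in the vehicle libraries. Sem1, the smallest lid subunit, measured 210.3, 193 and 177 TPM in the rMANF libraries, against 166, 217 and 207 TPM in the vehicle libraries. Pomp lay lower without overlap (log2 difference −0.26 ± 0.12, SE; limma, adjusted p = 0.265; −0.14 without vehicle replicate 2), and Sem1 overlapped (−0.02).

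Nfe2l1 (chromosome 11, 96817414 to 96829968 in GRCm38), the transcription factor gene for proteasome recovery, had the smallest p of the pathway genes compared. It measured 72.2, 73.3 and 74.3 TPM in the rMANF libraries, against 55.8, 45.9 and 44.1 TPM in the vehicle libraries. The rMANF values were nearly equal and lay above every vehicle value. The log2 difference was 0.59 ± 0.10 (SE) with a 95% interval of 0.35 to 0.83, which did not pass limma's test (adjusted p = 0.0893). No gene reached a lower adjusted value, but Nfe2l1 was not alone there. The adjustment can give genes of different p the same value, so this minimum does not rank Nfe2l1 first. A macrophage marker was among the genes that shared it, and 351 of all tested genes lay under an adjusted p of 0.10 in limma's test. The log2 difference of Nfe2l1 ran from 0.52 to 0.69 over the alternatives, and its adjusted p from 0.0186, with library weights, to 0.281.

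The genes of its small MAF partners had smaller differences. Mafk measured 23.8, 29.2 and 28.3 TPM in the rMANF libraries, against 23.3, 22.2 and 22.6 TPM in the vehicle libraries. It lay higher without overlap (0.24 ± 0.10, SE; limma, adjusted p = 0.234), and Mafg (0.16) and Maff (0.18) overlapped. Nfe2l2, the related oxidative stress factor gene, had a log2 difference of −0.11, and the genes of the protease Ddi2 and the glycanase Ngly1, which process NFE2L1, had 0.04 and 0.12. Of the 8 tested regulator genes 6 lay higher, against 57.3% of all tested genes, and 2 lower, with a median of 0.14. Without overlap 2 lay higher, against 18.9% of all tested genes, and 0 lower, against 9.02%. Across the subunits themselves the medians given above were −0.06 for the core and 0.00 for the regulatory particle.

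**Figure D5:**
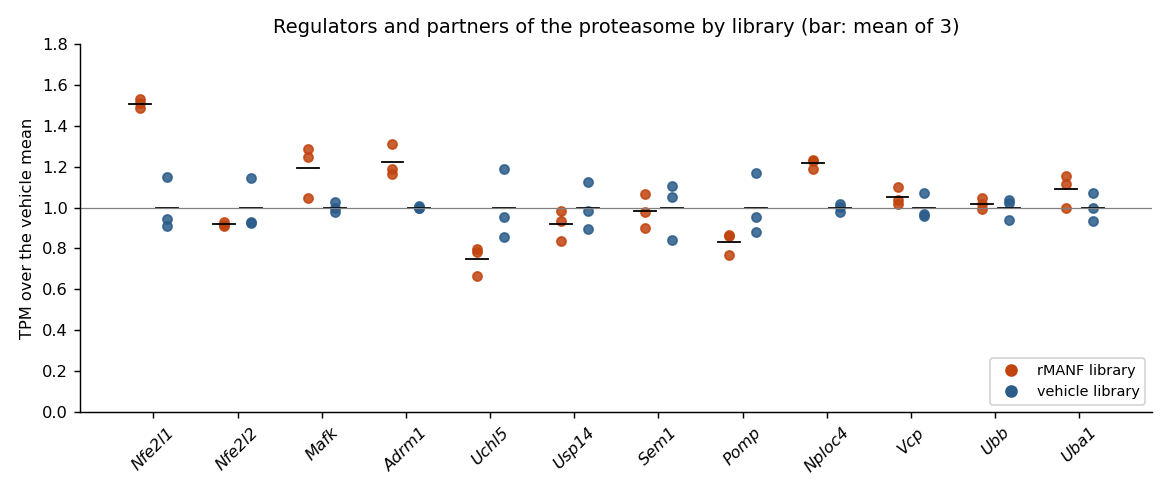
TPM of regulators and partners of the proteasome divided by the mean of the 3 vehicle libraries, 1 point per library with a bar at the group mean, rMANF left of vehicle for each gene. Nfe2l1, Adrm1 and Nploc4 lie above all vehicle points and Uchl5 and Pomp below them, whereas Sem1, Ubb and Vcp overlap.

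Genes upstream of the proteasome were compared by list, none of them with a member past the test. Of 6 tested shuttle receptors, which carry ubiquitinated proteins to the base, 5 lay higher, against 57.3% of all tested genes, and 2 of them without overlap, against 18.9%. Among them was Ubqln4 at 0.14, and Rad23b overlapped at 0.16. Of the 6 ubiquitin and E1 genes 5 lay higher and 1 without overlap (Rps27a at 0.12), against the same shares of all tested genes.

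Of the 9 tested genes of p97, the ATPase that extracts proteins for degradation, and its cofactors, 6 lay higher and 3 lower, with a median of 0.07. Over all tested genes 57.3% lay higher. Without overlap 2 of the 9 lay higher, against 18.9% of all tested genes. Its cofactor gene Nploc4 measured 52.8, 53.0 and 51.2 TPM in the rMANF libraries, against 43.8, 42.1 and 43.1 TPM in the vehicle libraries. The values were tight within each group and did not overlap (0.28 ± 0.08, SE; limma, adjusted p = 0.119; 0.0396 with library weights, up to 0.362 over the alternatives). The cofactor gene Nsfl1c lay higher without overlap at 0.17, and Faf1 overlapped at −0.15.

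The COP9 signalosome, which removes NEDD8 from cullin ligases and resembles the lid in its subunits, had 6 of 10 genes lower and 4 higher. Its smallest subunit gene Cops9 measured 384, 359 and 366 TPM in the rMANF libraries, against 439, 513 and 508 TPM in the vehicle libraries. It lay lower without overlap (−0.39 ± 0.09, SE; limma, adjusted p = 0.0964; 0.026 with library weights, up to 0.285 over the alternatives). Gps1 and Cops7a lay higher without overlap, at 0.23 and 0.21. In total 3 of the 10 genes lay higher without overlap, against 18.9% of all tested genes, and 2 lower, against 9.02%. The chaperonin CCT, a ring complex that folds cytoskeletal proteins, was compared as another complex of many subunits. It had 4 of 8 genes lower and 4 higher, with 2 lower without overlap (Tcp1 at −0.17 and Cct8 at −0.13), against 9.02% of all tested genes, and Cct6a overlapping at −0.15, so both complexes also held members on either side.

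Of the 7 sets of cell type markers the summed levels of macrophage, skeletal muscle and T and NK cell markers lay lower in every rMANF library than in any vehicle library, and those of the other sets overlapped. The 11 cardiomyocyte markers had rows and together reached 10.4 to 14.3 TPM in the rMANF libraries and 10.8 to 57.6 TPM in the vehicle libraries, below the value of every tested core and regulatory subunit in every library and against the tissue label. Macrophage markers (15 of 15) together reached 1997 to 2726 TPM in the rMANF libraries and 3457 to 3903 TPM in the vehicle libraries, and skeletal muscle markers (14 of 14) reached 7.61 to 20.4 TPM in the rMANF libraries and 28.4 to 1248 TPM in the vehicle libraries. Endothelial markers (8 of 8) summed to 132 to 161 TPM in the rMANF libraries and 101 to 136 TPM in the vehicle libraries, and erythroid markers (5 of 5) to 209 to 302 TPM in the rMANF libraries and 196 to 682 TPM in the vehicle libraries. Melanocytic markers (3 of 7 had rows) reached 7.44 to 10.2 TPM in the rMANF libraries and 7.96 to 12.6 TPM in the vehicle libraries. Of the listed markers that had rows, none was at 0 in all libraries. In bulk samples fewer cells of a type and less RNA per cell cannot be told apart, and the part of these markers in the proteasome values was not tested. Between 18830 and 19298 genes lay above 0 in a library, the libraries correlated across tested genes at Spearman values of 0.964 to 0.989, lowest between rMANF replicate 3 and vehicle replicate 2, and TPM keeps no record of sequencing depth.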

How the data were processed

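RNA was extracted from samples labelled heart and sequenced from cDNA libraries of the Nextera XT type, without strand information, per the labels' protocols. Cutadapt, fastp, Salmon 0.14.1, HTSeq 0.11.0 and mouse build mm10 were used, per the submitters' processing notes; no source used here says which of them gave the final values. Values were deposited by the authors as log2 TPM per gene and library in 1 table. Raising 2 to these values gave sums within 11 TPM of 1000000 per library, so no offset was present, and −9 stood for no estimate and was read as 0. TPM keeps no record of depth, so no counting interval was computed.

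Differences are rMANF minus vehicle on log2(TPM + 1). The 12865 genes averaging 1 TPM or more over the libraries were fitted together with limma 3.58.1 in R 4.3.3 (no covariate, variances moderated by empirical Bayes along a trend on level, 2-sided, Benjamini-Hochberg adjustment, threshold 0.05). With 3 libraries in each group there are 20 ways to assign the labels, so an exact permutation test, 2-sided, cannot go below 0.1. Members and lists were chosen with earlier results of these data known, so no list was tested. Genes given with every library's value are the 3 of smallest p in each direction among core, regulatory and other members, the highest and lowest in level, the catalytic and immunoproteasome genes, Psmd14, Psmc3ip, Nfe2l1, Pomp, Adrm1 and Sem1, and up to 3 of smallest p per pathway list; Psma1, Psma2, Psma3 and Psma5 were added after their values were seen. Some genes of the pathway lists are counted but not reported singly here. Coordinates, transcript GC content (99.7% of tested genes) and exon overlaps came from the GENCODE annotation of GRCm38 (mm10), and promoters from RefSeq. The alternatives changed the pseudocount (0.1 or 5 TPM), the filter (none, or 5 TPM), the scaling (median of ratios, quantile, or without mitochondrial and haemoglobin genes), the variance prior, library weights, a replicate block, the GC trend (removed by loess, span 0.5), the libraries included and the threshold (0.10).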

Additional observations from a re-analysis of the deposited data

How the results depend on the processing

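No member passed the threshold in any of the 19 alternative fits or at 0.10. Over all genes the count of 0 became 737 with library weights, 351 at a threshold of 0.10, and 0 to 4 with a library left out. It was 3 with the replicate block and 26 with the replicate block and the GC trend removed. Deviations from the group means correlated at −0.07, 0.03 and 0.05 for same-numbered libraries and at −0.15 to 0.12 for the others. With means of 3 libraries these values cannot decide whether the numbers pair the samples, and the labels do not say. The 5 core genes with all rMANF values below became 3 with the GC trend removed, with or without the block. They ranged from 5 to 7 with a library left out. Of all tested genes 8.68% lay below with the GC trend removed and 10.5% to 14.9% with a library left out. The 1 core gene above became 0 under median-of-ratios scaling or rescaling without mitochondrial and haemoglobin genes, and 1 to 2 with a library left out. The shares of all tested genes above were 15.6%, 17.1% and 20.6% to 32.1% in that order. In the regulatory particle the 0 genes below became 1 under median-of-ratios scaling, 2 under quantile normalization and 0 to 3 with a library left out (3 without vehicle replicate 3), and the 2 above became 1 under median-of-ratios scaling and 2 to 6 with a library left out (6 without vehicle replicate 1). The regulatory median moved to −0.049 under median-of-ratios scaling, where that of all genes was −0.0067, and the alpha ring median to −0.069 with the GC trend removed, with or without the block.

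Of 28 members compared singly 20 kept their sign throughout. Under median-of-ratios scaling Psma7 turned to −0.046, Psmb6 to −0.043, Psmd4 to −0.028 and Psmd13 to −0.00124. Rescaling without mitochondrial and haemoglobin genes gave −0.012 for Psma7 and −0.0092 for Psmb6. With the GC trend removed, with or without the block, Psma7 stood at −0.12, Psmb6 at −0.00132, Psmd4 at −0.0099, Psmd14 at 0.079 and Sem1 at 0.074. Library weights gave 0.052 for Psmd14 and 0.037 for Psmb8. With a library left out the ranges were −0.043 to 0.063 for Psma7, −0.012 to 0.26 for Psmb5, −0.0504 to 0.072 for Psmb6, −0.22 to 0.011 for Psmd12, −0.011 to 0.072 for Psmd4, −0.0095 to 0.14 for Psmd13, −0.068 to 0.086 for Psmd14, −0.0024 to 0.15 for Psmc3ip, −0.22 to 0.039 for Psmb8, −0.40 to 0.11 for Psmb10 and −0.14 to 0.056 for Sem1. The causes were not tested. Leaving out a library leaves 2 in a group, and 3 libraries a group limit every call.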
